A study of Homo sapiens with 6 samples.

Results

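The oxygenases described here use molecular oxygen, 2-oxoglutarate and ferrous iron to hydroxylate or demethylate proteins, DNA and RNA. They were taken as the genes of the deposited table whose symbol stood in a list of 51 2-oxoglutarate oxygenases. The list held 14 JmjC histone demethylases, 7 other JmjC proteins, the 3 TET enzymes, 9 ALKBH and FTO enzymes, 10 prolyl and lysyl hydroxylases and 8 others. Of the 51, 50 had a row among the 30676 genes of the table, and BBOX1, which makes carnitine, was not analysed here. RNA was sequenced from cells labelled HCT116, an established human colorectal cancer line, described as wild type. One group had been given GIA, named in the title of the series as genistein isoflavonoid alkaloids, at 10 µM, and the other DMSO at 0.1%, for 24 hours, and all of the cells were at 1% oxygen, with 3 libraries per group. No group was kept at normal oxygen, so the response of these genes to hypoxia itself was not measured. Separate cultures are not stated in the labels for libraries of one group, so the tests measure the spread between these libraries, which may be technical.

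Library totals were 55725249 to 67835059 estimated counts, and all 3 GIA libraries had larger totals than any DMSO library. The labelled cell type was checked against epithelial markers, and several of these were nearly absent. EPCAM averaged 0.249 ± 0.115 FPKM (a count of fragments scaled to gene length and library depth) in the GIA libraries and 0.255 ± 0.0519 FPKM in the DMSO libraries (SD, n = 3 each). The adhesion molecule CDH1 averaged 0.0303 ± 0.0144 FPKM in the GIA libraries and 0.0422 ± 0.00592 FPKM in the DMSO libraries. LGALS4 was listed at 0 in 4 libraries and was at most 0.0751 FPKM, while the simple-epithelium keratins KRT8, KRT18 and KRT19 averaged 144, 249 and 27.2 FPKM in the GIA libraries and 148, 262 and 28.1 FPKM in the DMSO libraries. Of 7 epithelial markers 4 had a mean of at least 0.5 FPKM, and so did 3 of 6 fibroblast markers, of which 5 had a row. The proteoglycan DCN, one of these 3, averaged 13.5 ± 2.40 FPKM in the GIA libraries and 12.2 ± 0.479 FPKM in the DMSO libraries. On the same list, COL3A1 was at most 0.00766 FPKM, and THY1 averaged 0.0867 FPKM in the GIA and 0.0843 FPKM in the DMSO libraries. The summed level of the fibroblast markers was 17.8 to 24.6 FPKM in the GIA libraries and 17.7 to 18.9 FPKM in the DMSO libraries, and was highest in GIA library 2. No leukocyte or endothelial marker with a row (2 of 4 and 3 of 4) reached 0.5 FPKM. The cells are called by their label below, although several epithelial markers were nearly absent. What these marker levels mean for the identity of the line was not tested.

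These enzymes link gene regulation and matrix assembly to the supply of oxygen. JmjC demethylases remove methyl groups from histone lysines, TET enzymes oxidise 5-methylcytosine in DNA, and ALKBH5 and FTO remove N6-methyladenosine (m6A) from RNA. Collagen prolyl and lysyl hydroxylases act in the endoplasmic reticulum, where their products stabilise the collagen triple helix and allow cross-links. Each of them needs oxygen, and their sensitivity to low oxygen differs between enzymes. Several of the genes, among them KDM3A, KDM4B, KDM4C, P4HA1, P4HA2, PLOD1 and PLOD2, are themselves known to be induced by hypoxia-inducible factor in other cells.

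No oxygenase transcript differed between GIA and DMSO past the threshold. Of the 50 genes, 47 had a mean of at least 0.5 FPKM over the 6 libraries and were tested; KDM4D, ASPHD2 and TET1 were below this level. By edgeR's quasi-likelihood test 0 of the 47 had an adjusted p under 0.05, against 0 of all 13721 genes tested (0%), and the smallest adjusted p among the 47 was 0.875. DESeq2 and limma on FPKM also called 0 of the 47. At an unadjusted p under 0.05 there was 1 of the 47 (2.13%), RIOX2, against 4.59% of all genes tested. Without GIA library 1 this count was 6 (12.8%), against 10.3% of all genes tested in that fit, and 0 of the 47 passed the adjusted threshold when any 1 library was left out. Fold changes were positive for 25 and negative for 22 of the 47, with a median of 0.0076 on the log2 scale, GIA over DMSO, against 0.00038 for all genes tested. The largest of the 47 in size was 0.16, and the median size was 0.053, against 0.060 for all genes tested. In these bulk samples, fewer cells of a type and less RNA per cell cannot be told apart.

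The intervals bound how large a difference these libraries could hold. For all 47 tested oxygenases the 95% interval of the fold change lay within 1.5-fold either way, against 83.0% of all genes tested. Within 1.25-fold lay 38 of the 47 (80.9%), against 65.7% of all genes tested. These are intervals of single genes, not adjusted for their number, and the low genes P3H3, P4HA3 and KDM8 had the widest. The interval of P3H3 ran from -0.33 to 0.54 on the log2 scale, and that of P3H2 from -0.093 to 0.056. Both are prolyl 3-hydroxylases, and they averaged 0.739 and 26.9 FPKM over the 6 libraries.

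**Figure D1:**
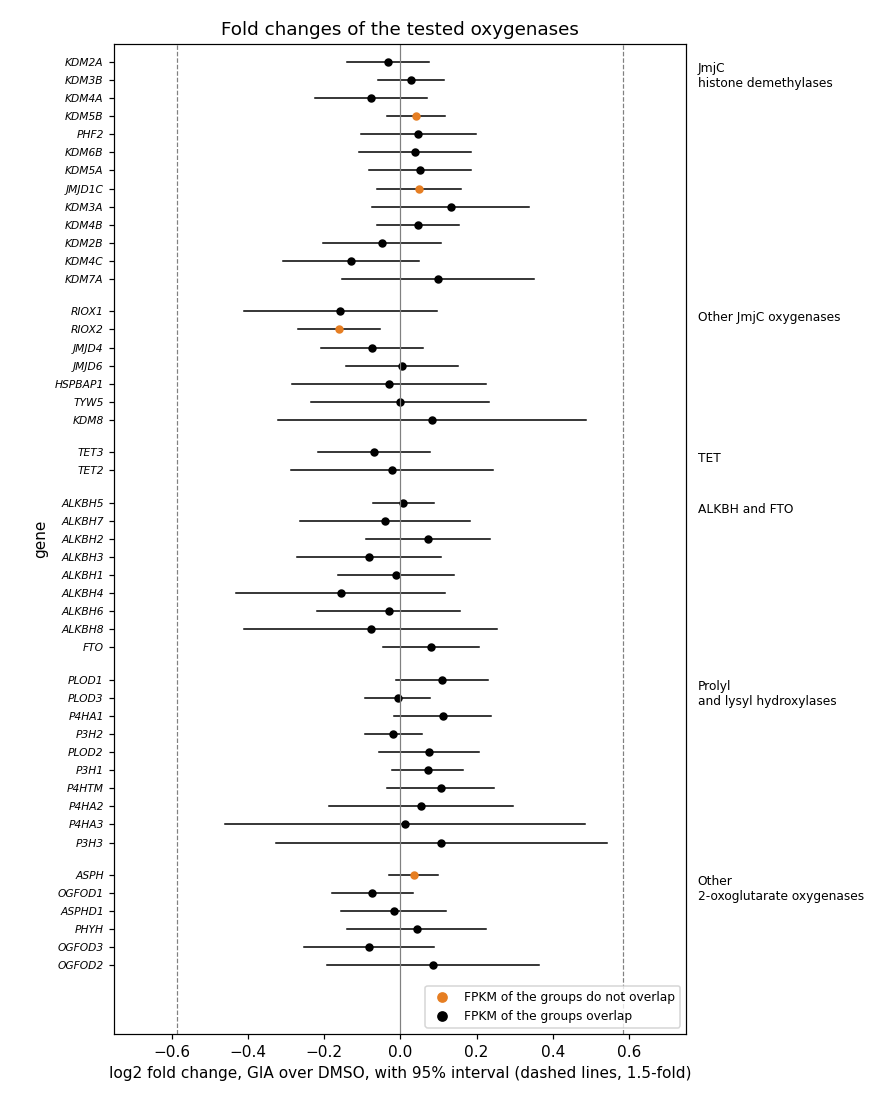
Log2 fold change of GIA over DMSO (x axis) for the 47 tested oxygenases (y axis, grouped by family and ordered by level within a family), with 95% intervals from edgeR as lines. Every interval lies between the dashed lines at 1.5-fold, and the 4 orange points are JMJD1C, KDM5B and ASPH, for which all GIA values lay above all DMSO values, and RIOX2, for which all lay below.

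The groups separated completely in FPKM for 4 of the 47 genes (8.51%), against 11.2% of all genes tested. JMJD1C, KDM5B and ASPH were higher in all 3 GIA libraries than in any DMSO library (6.38% of the 47, against 5.63% of all genes tested). RIOX2 was lower in all 3 (2.13%, against 5.60%). RIOX2, which hydroxylates a histidine of the ribosomal protein RPL27A (chromosome 3, 97941818 to 97972457 of GRCh38), had 9.55, 8.92 and 9.47 FPKM in GIA libraries 1 to 3, against 10.0, 10.8 and 10.4 FPKM in DMSO libraries 1 to 3. The highest GIA value was thus just below the lowest DMSO value. On the log2 scale RIOX2 differed by -0.16 (SE 0.047) and its 95% interval ran from -0.27 to -0.054, with an unadjusted p of 0.00774 and an adjusted p of 0.875 by edgeR. The unadjusted p lay between 0.00427 and 0.0320 in all 14 settings, the 6 with 1 library left out included, and the adjusted p between 0.469 and 0.996, so that the difference did not pass in any of them. An opposite-strand gene, CRYBG3, overlaps its model by 3167 bases at a mean of 2.39 FPKM, and although the libraries were strand-specific per the labels, no source used here states whether strand was used in counting.

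The differences of the 3 genes that lay above were smaller. JMJD1C, a relative of the H3K9 demethylase KDM3A, had 2.97, 3.09 and 2.98 FPKM in GIA libraries 1 to 3, against 2.93, 2.91 and 2.90 FPKM in DMSO libraries 1 to 3. Its log2 fold change was 0.048 (SE 0.048, adjusted p 0.888). KDM5B, which removes methyl groups from lysine 4 of histone H3, had 5.29, 5.49 and 5.22 FPKM in the GIA libraries, against 5.17, 5.15 and 5.21 FPKM in the DMSO libraries. Its log2 fold change was 0.041 (SE 0.034, adjusted p 0.878). ASPH, which hydroxylates aspartate and asparagine in EGF-like domains, had 22.9, 22.7 and 22.6 FPKM in the GIA libraries, against 21.9, 22.5 and 22.2 FPKM in the DMSO libraries, and 0.035 (SE 0.028, adjusted p 0.878) on the log2 scale. In all 4 separated genes the gap between the groups was smaller than the range of the 3 GIA values. Without GIA library 1 the groups separated for 11 of the 47 (23.4%, against 27.1% of all genes tested in the same fit), and without GIA library 3 for 11 (23.4%, against 19.6%). They separated for 10 without DMSO library 1 (21.3%, against 20.9%) and for 10 without DMSO library 2 (21.3%, against 19.2%). The count was 4 without GIA library 2 (8.51%, against 20.9%) and 5 without DMSO library 3 (10.6%, against 21.4%).

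Oxygenase levels ranged widely in these cells. FPKM is scaled to gene length, so levels of different genes are set side by side on it, and they depend on the length taken for each gene. Of the 50 genes, 7 averaged at least 20 FPKM over the 6 libraries, 18 averaged 5 to 20, 18 averaged 1 to 5, 4 averaged 0.5 to 1 and 3 were below 0.5. PLOD1 was the highest at 49.1 FPKM, followed by ALKBH5 at 40.9, PLOD3 at 32.5, P4HA1 at 32.1, P3H2 at 26.9, PLOD2 at 25.9 and ASPH at 22.5. Of the neighbours in this order, PLOD3 and P4HA1 overlapped between libraries, and so did P3H2 and PLOD2; the values of the other neighbours among these 7 did not. The 10 prolyl and lysyl hydroxylases made up 41.3% of the summed FPKM of the 50 genes, the 14 histone demethylases 15.9% and the 3 TET genes 0.950%. The sum over all 50 was 459 ± 8.30 FPKM in the GIA libraries and 454 ± 4.05 FPKM in the DMSO libraries (SD, n = 3 each).

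**Figure D2:**
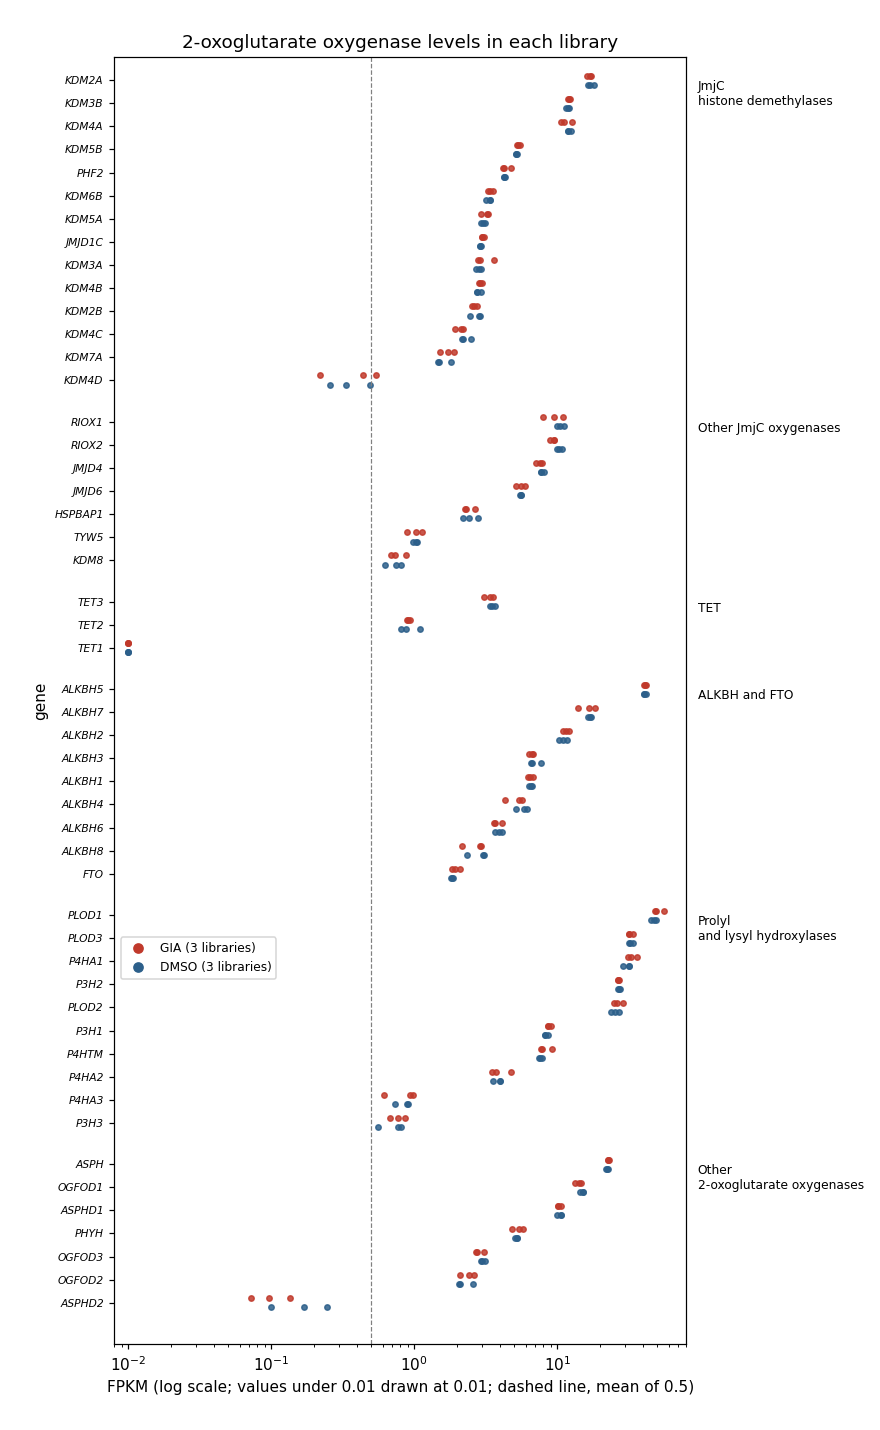
FPKM on a log scale (x axis) of the 50 oxygenases (y axis, by family), with 1 point per library, GIA in red above DMSO in blue. The libraries of the 2 groups lie on top of each other for most genes, from PLOD1 at 49.1 FPKM on average to TET1, whose values under 0.01 FPKM are drawn at 0.01.

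Prolyl and lysyl hydroxylases, all but P4HTM named here for their action on collagen, were the family with the highest summed FPKM. Of the 10, 7 (70%) had their highest value in GIA library 2, against 29.6% of all genes tested. PLOD1, a lysyl hydroxylase of the collagen helix (chromosome 1, 11934205 to 11966414 of GRCh38), had 48.2, 55.5 and 49.3 FPKM in GIA libraries 1 to 3, against 49.0, 45.0 and 47.5 FPKM in DMSO libraries 1 to 3. PLOD2, which hydroxylates lysines in the collagen telopeptides, had 25.0, 28.6 and 26.2 FPKM in the GIA libraries, against 26.9, 23.6 and 25.1 FPKM in the DMSO libraries. For both genes GIA library 2 was the highest and DMSO library 2 the lowest, and the groups overlapped. The log2 fold change of PLOD1 was 0.11 (SE 0.053, adjusted p 0.875), and it was 0.049 without GIA library 2. That of PLOD2 was 0.075 (SE 0.058, adjusted p 0.877), which became 0.023 with GIA library 2 left out and 0.031 with DMSO library 2 left out. PLOD3, which also glycosylates hydroxylysine, averaged 32.5 ± 1.01 FPKM in the GIA libraries and 32.6 ± 1.04 FPKM in the DMSO libraries, with its highest value in DMSO library 2. The ratio of PLOD2 to PLOD3 was 0.784, 0.851 and 0.821 in GIA libraries 1 to 3, against 0.851, 0.701 and 0.774 in DMSO libraries 1 to 3.

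Among the catalytic subunits of collagen prolyl 4-hydroxylase, P4HA1 was the main one. P4HA1 (chromosome 10, 73007217 to 73096974 of GRCh38) had 31.5, 35.9 and 32.6 FPKM in GIA libraries 1 to 3, against 31.8, 28.9 and 31.7 FPKM in DMSO libraries 1 to 3. The difference was 0.11 on the log2 scale (SE 0.056, adjusted p 0.875), its 95% interval ran from -0.016 to 0.24, and the difference was 0.058 with GIA library 2 left out and 0.067 with DMSO library 2 left out. P4HA2 had 3.49, 4.79 and 3.76 FPKM in the GIA libraries, against 4.01, 3.58 and 3.99 FPKM in the DMSO libraries, and 0.053 (SE 0.11, adjusted p 0.940) on the log2 scale, which turned to -0.088 without GIA library 2. GIA library 2 was the highest for both, but GIA library 1 was the lowest for P4HA2. In FPKM, the level of P4HA1 was 8.40 ± 0.794 times that of P4HA2 in the GIA libraries (SD, n = 3). It was 7.99 ± 0.0739 times in the DMSO libraries (SD, n = 3). Estimated counts, which are not scaled to length, lay closer together, at 5559 to 8242 for P4HA1 and 1896 to 3025 for P4HA2. P4HA3, the third catalytic subunit, averaged 0.848 ± 0.201 FPKM in the GIA libraries and 0.840 ± 0.0964 FPKM in the DMSO libraries, and shares 18903 bases with PPME1 on the opposite strand (mean 11.0 FPKM), so its own level is uncertain.

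The remaining hydroxylases of this family overlapped between the groups. P4HTM, a transmembrane prolyl 4-hydroxylase that can act on hypoxia-inducible factor, had 7.64, 9.12 and 7.82 FPKM in GIA libraries 1 to 3, against 7.76, 7.43 and 7.59 FPKM in DMSO libraries 1 to 3, with GIA library 2 again the highest. It overlaps 92 bases of the far more abundant WDR6 on the same strand (mean 51.5 FPKM). P3H1, the prolyl 3-hydroxylase that works with CRTAP and PPIB, averaged 8.78 ± 0.283 FPKM in the GIA libraries and 8.34 ± 0.206 FPKM in the DMSO libraries. P3H2 averaged 26.8 ± 0.250 and 27.1 ± 0.411 FPKM in the GIA and DMSO libraries and had the lowest coefficient of variation of the tested oxygenases, 1.29% over the 6 libraries. P3H3 averaged 0.769 ± 0.0895 FPKM in the GIA libraries and 0.709 ± 0.135 FPKM in the DMSO libraries. Over the 10 genes, 8 fold changes were positive and 2 negative, with a median of 0.073, of 0.025 without GIA library 2 and of 0.13 without GIA library 1. None of the 10 passed the test.

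The 7 oxygenases known as hypoxia-induced had a summed level of 116, 133 and 120 FPKM in GIA libraries 1 to 3, against 120, 109 and 116 FPKM in DMSO libraries 1 to 3. GIA library 2 was the highest and DMSO library 2 the lowest, and the sum was made up mostly of PLOD1, P4HA1 and PLOD2. KDM4B, KDM4C and P4HA2 had their highest or lowest value in other libraries. The hypoxia-induced carbonic anhydrase CA9 had 9.50, 32.8 and 15.3 FPKM in the GIA libraries, against 18.1, 4.17 and 9.23 FPKM in the DMSO libraries, and was likewise highest in GIA library 2 and lowest in DMSO library 2. BNIP3, another gene induced by hypoxia, had 8.72, 13.2 and 10.5 FPKM in the GIA libraries, against 10.4, 7.04 and 9.08 FPKM in the DMSO libraries. HIF1A, which encodes an oxygen-regulated subunit of hypoxia-inducible factor, had 58.3, 66.5 and 59.4 FPKM in the GIA libraries, against 60.4, 59.6 and 59.7 FPKM in the DMSO libraries, highest in GIA library 2 but lowest in GIA library 1. Whether the libraries differed in oxygen supply was not tested. The 7 genes had 6 positive and 1 negative fold change and a median of 0.075, which was 0.023 when GIA library 2 was left out, 0.12 when DMSO library 1 was, and 0.14 when GIA library 1 was. The median over all genes tested was 0.00038, and it was -0.00013, 0.00062 and 0.00063 in those 3 fits.

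Sequences just upstream of P4HA1, PLOD1, PLOD2 and KDM3A are shown because, of the 7 genes known as hypoxia-induced, these 4 had their highest FPKM in GIA library 2 and their lowest in DMSO library 2. KDM5B, KDM7A, FTO and P4HTM had the same highest and lowest library and are not shown; their windows held 1, 1, 0 and 0 of the cores described next. Each is the 250 bases before the start of the gene in RefSeq (GRCh38.p14), read 5′ to 3′ on the strand of the gene; the windows of PLOD1 and KDM3A and part of that of P4HA1 lie inside the longer gene models of the deposited table. Capitals mark the core of the hypoxia response element, ACGTG or GCGTG, on either strand (CACGT or CACGC on the strand shown), and cores on the 2 strands may overlap.

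P4HA1 (chr10:73096867-73097116, minus strand): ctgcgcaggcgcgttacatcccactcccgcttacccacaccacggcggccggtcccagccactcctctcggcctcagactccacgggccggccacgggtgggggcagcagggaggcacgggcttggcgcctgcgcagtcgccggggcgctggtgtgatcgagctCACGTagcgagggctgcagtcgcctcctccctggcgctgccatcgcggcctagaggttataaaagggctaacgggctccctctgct

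PLOD1 (chr1:11934467-11934716, plus strand): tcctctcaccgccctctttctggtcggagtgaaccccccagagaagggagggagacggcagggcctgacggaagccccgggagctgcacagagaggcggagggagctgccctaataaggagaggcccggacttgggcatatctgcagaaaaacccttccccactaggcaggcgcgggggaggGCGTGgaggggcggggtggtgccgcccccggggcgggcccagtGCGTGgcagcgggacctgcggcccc

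PLOD2 (chr3:146161185-146161434, minus strand): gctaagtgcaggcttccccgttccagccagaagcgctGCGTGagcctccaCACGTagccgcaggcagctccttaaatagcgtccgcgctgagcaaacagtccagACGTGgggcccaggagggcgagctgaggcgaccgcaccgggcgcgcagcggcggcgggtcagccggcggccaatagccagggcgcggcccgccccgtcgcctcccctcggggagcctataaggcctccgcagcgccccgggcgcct

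KDM3A (chr2:86441121-86441370, plus strand): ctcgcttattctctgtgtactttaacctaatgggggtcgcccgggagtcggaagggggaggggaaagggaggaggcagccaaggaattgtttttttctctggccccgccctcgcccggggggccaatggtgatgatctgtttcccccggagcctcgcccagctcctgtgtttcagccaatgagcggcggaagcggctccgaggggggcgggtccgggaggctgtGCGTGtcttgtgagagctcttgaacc

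The core was found 1 time in the window of P4HA1, 2 times in that of PLOD1, 3 times in that of PLOD2 and 1 time in that of KDM3A. Of the 51 listed genes, 45 had an entry in the table of upstream sequences, and the first entry was used where a gene had several. The core was present in 29 of the 45 windows (64.4%), against 58.8% of 9448 tested genes and 43.1% of all 27305 genes with an entry. P4HA2, also highest in GIA library 2, held no core in this window. KDM4B and KDM4C, known as hypoxia-induced but neither highest in GIA library 2 nor lowest in DMSO library 2, held 4 and 5. A core is a match of 5 letters and is not evidence that a factor binds there.

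**Figure D3:**
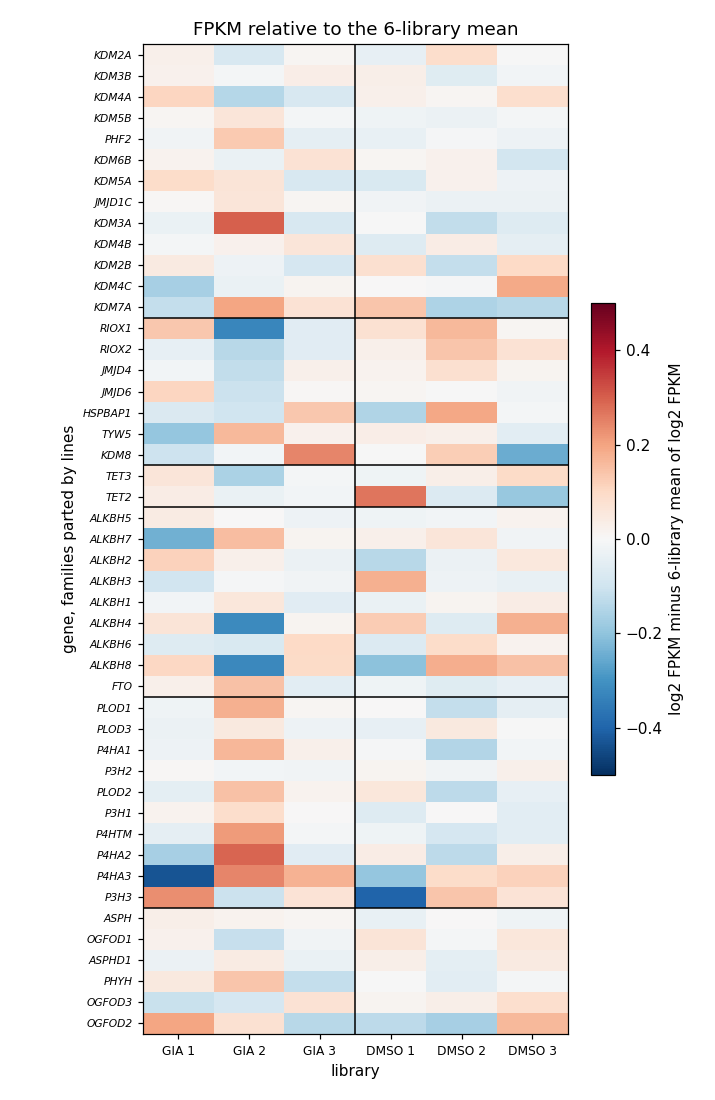
Log2 FPKM of the 47 tested oxygenases (rows, families parted by lines) in each library (columns, GIA left of DMSO) minus the mean over the 6 libraries. The GIA 2 column stands out, with KDM3A, P4HA2 and PLOD1 high and RIOX1, ALKBH4 and ALKBH8 low, and for 28 of the 47 genes it holds the highest or the lowest value.

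GIA library 2 held the highest value for 17 of the 47 tested oxygenases and the lowest for 11, so that it was an extreme for 59.6% of them. Over all genes tested it was an extreme for 53.5%, and each other library for 23.6% to 33.9%. This library stood apart in the same way across the transcriptome. Among the fold changes printed here, those it moves most are given with and without it. ALKBH8, P4HA3 and ALKBH4, whose fold changes are not printed, moved by similar amounts. Without GIA library 2 the sign changed for 8 of the 47 (17.0%), against 20.3% of all genes tested.

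Histone demethylases of the JmjC class were expressed at moderate levels and none passed the test. KDM3A, which removes mono- and dimethylation from lysine 9 of histone H3, had 2.88, 3.63 and 2.79 FPKM in GIA libraries 1 to 3, against 2.95, 2.71 and 2.82 FPKM in DMSO libraries 1 to 3. Only GIA library 2 lay apart, and the other 5 libraries were within 2.71 to 2.95 FPKM. The log2 fold change was 0.13 (SE 0.091, adjusted p 0.875), and it was 0.0080 without GIA library 2. Its paralogue KDM3B averaged 12.0 ± 0.180 FPKM in the GIA libraries and 11.8 ± 0.358 FPKM in the DMSO libraries. In FPKM, which depends on the length taken for each gene, the ratio of KDM3B to KDM3A was 4.20, 3.26 and 4.37 in GIA libraries 1 to 3. It was 4.12, 4.22 and 4.19 in DMSO libraries 1 to 3.

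The KDM4 demethylases act on trimethylated lysine 9 of histone H3, and some of them also on lysine 36. KDM4A averaged 11.5 ± 1.05 FPKM in the GIA libraries and 12.1 ± 0.332 FPKM in the DMSO libraries. KDM4B, known as hypoxia-induced, had 2.83, 2.89 and 2.97 FPKM in GIA libraries 1 to 3, against 2.73, 2.92 and 2.76 FPKM in DMSO libraries 1 to 3, a log2 fold change of 0.046 (SE 0.048, adjusted p 0.890). KDM4C had 1.94, 2.13 and 2.20 FPKM in the GIA libraries, against 2.19, 2.17 and 2.49 FPKM in the DMSO libraries, a log2 fold change of -0.13 (SE 0.079, adjusted p 0.875). It was the 1 gene of the 7 known as hypoxia-induced whose fold change was negative, and it had -0.064 without DMSO library 3, its highest library. KDM4D was not tested and had 0.439, 0.536 and 0.218 FPKM in the GIA libraries, against 0.332, 0.258 and 0.492 FPKM in the DMSO libraries.

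Other demethylases had similar levels in both groups. KDM2A, a CXXC-domain demethylase of lysine 36 of histone H3, was the highest of the class with 17.3, 16.0 and 17.1 FPKM in GIA libraries 1 to 3, against 16.5, 18.0 and 17.0 FPKM in DMSO libraries 1 to 3. Its log2 fold change was -0.034 (SE 0.048, adjusted p 0.918), and its sign turned without GIA library 2 (0.0025) and without DMSO library 2 (0.0052). KDM2B, its paralogue, averaged 2.63 ± 0.117 FPKM in the GIA libraries and 2.72 ± 0.223 FPKM in the DMSO libraries. KDM5A, an oxygen-sensitive demethylase of lysine 4 of histone H3, averaged 3.15 ± 0.199 FPKM in the GIA libraries and 3.04 ± 0.102 FPKM in the DMSO libraries. KDM6B, which removes methylation from lysine 27, averaged 3.41 ± 0.125 and 3.32 ± 0.142 FPKM, KDM7A, a demethylase of lysines 9 and 27, 1.71 ± 0.187 and 1.59 ± 0.188 FPKM, and PHF2, which acts on lysine 9, 4.40 ± 0.294 and 4.25 ± 0.0477 FPKM in the GIA and DMSO libraries. Of the 13 tested histone demethylases, 9 had a positive and 4 a negative fold change (median 0.041), and their summed level was 72.4 ± 1.03 FPKM in the GIA libraries and 72.3 ± 0.324 FPKM in the DMSO libraries.

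Of the 7 other JmjC proteins, 4 were lowest in GIA library 2 (57.1%), against 23.9% of all genes tested. They were RIOX1, RIOX2, JMJD4 and JMJD6. RIOX1, which hydroxylates a histidine of RPL8, had 10.9, 7.91 and 9.56 FPKM in GIA libraries 1 to 3, against 10.5, 11.1 and 10.0 FPKM in DMSO libraries 1 to 3. Only its GIA library 2 value was far below the others, and the groups overlapped. The log2 fold change was -0.16 (SE 0.11, adjusted p 0.875), with -0.041 without GIA library 2 and -0.27 without GIA library 1. RIOX2, in contrast, kept -0.13 without GIA library 2. JMJD4, which hydroxylates the translation release factor eRF1, averaged 7.49 ± 0.391 FPKM in the GIA libraries and 7.87 ± 0.209 FPKM in the DMSO libraries. It shares 4987 bases with SNAP47 on the opposite strand (mean 8.51 FPKM).

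JMJD6, a lysyl hydroxylase of splicing factors, averaged 5.58 ± 0.408 FPKM in the GIA libraries and 5.55 ± 0.0522 FPKM in the DMSO libraries. HSPBAP1, a protein that binds the small heat shock protein HSP27, averaged 2.41 ± 0.220 FPKM in the GIA libraries and 2.46 ± 0.298 FPKM in the DMSO libraries. KDM8, an arginyl hydroxylase, averaged 0.769 ± 0.0981 and 0.726 ± 0.0923 FPKM, and TYW5, which hydroxylates the wybutosine base of phenylalanine tRNA, 1.02 ± 0.124 and 1.02 ± 0.0327 FPKM in the GIA and DMSO libraries. Both of these were near 1 FPKM, and TYW5 lies opposite MAIP1 and C2orf69, whose levels were higher. Fold changes were positive for 2 and negative for 5 of these 7 genes (median -0.029).

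TET transcripts were low, and TET1 was nearly undetected. TET1 was listed at 0 estimated counts in all 3 GIA libraries, against 4, 0 and 0 in DMSO libraries 1 to 3. No fold change is given for it. TET2 had 0.939, 0.893 and 0.906 FPKM in the GIA libraries, against 1.10, 0.873 and 0.801 FPKM in the DMSO libraries, with its highest and lowest values both among the DMSO libraries. TET3 was the main TET transcript, with 3.56, 3.06 and 3.39 FPKM in GIA libraries 1 to 3, against 3.37, 3.48 and 3.64 FPKM in DMSO libraries 1 to 3. Its log2 fold change was -0.069 (SE 0.065, adjusted p 0.881), and it was -0.0068 without GIA library 2. In FPKM, the level of TET3 was 3.65 ± 0.198 times that of TET2 in the GIA libraries (SD, n = 3). It was 3.86 ± 0.753 times in the DMSO libraries (SD, n = 3).

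The m6A eraser ALKBH5 had a higher level than FTO in every library, by an amount that depends on the scaling to gene length. ALKBH5 (chromosome 17, 18183078 to 18209954 of GRCh38) had 42.1, 40.9 and 40.1 FPKM in GIA libraries 1 to 3, against 40.3, 40.5 and 41.4 FPKM in DMSO libraries 1 to 3, and the groups overlapped throughout. The fold change of 0.0076 on the log2 scale (SE 0.035, adjusted p 0.979) had a 95% interval from -0.072 to 0.087, and the sign turned without GIA library 1 and without DMSO library 1. FTO had 1.93, 2.10 and 1.83 FPKM in the GIA libraries, against 1.87, 1.82 and 1.84 FPKM in the DMSO libraries, with the highest value in GIA library 2. In FPKM, the level of ALKBH5 was 21.1 ± 1.38 times that of FTO in the GIA libraries and 22.1 ± 0.477 times in the DMSO libraries (SD, n = 3 each). Estimated counts, which are not scaled to length, lay closer together. They were 8837 to 11243 for ALKBH5 and 2418 to 3327 for FTO over the 6 libraries.

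Other ALKBH genes showed no difference past the threshold. ALKBH2 and ALKBH3, which repair alkylated bases, averaged 11.5 ± 0.582 and 6.59 ± 0.219 FPKM in the GIA libraries and 11.0 ± 0.728 and 6.97 ± 0.601 FPKM in the DMSO libraries. ALKBH7, a mitochondrial protein, had 14.0, 18.4 and 16.7 FPKM in GIA libraries 1 to 3, against 16.9, 17.2 and 16.4 FPKM in DMSO libraries 1 to 3. The lowest and the highest of these were both GIA values. ALKBH8, which modifies the wobble uridine of tRNAs, had 2.92, 2.17 and 2.90 FPKM in the GIA libraries, against 2.35, 3.08 and 3.00 FPKM in the DMSO libraries, and ALKBH4, which demethylates actin, had 5.64, 4.33 and 5.44 FPKM in the GIA libraries, against 5.89, 5.16 and 6.10 FPKM in the DMSO libraries. Both were lowest in GIA library 2. ALKBH1, which acts on tRNA, averaged 6.49 ± 0.256 and 6.53 ± 0.161 FPKM and ALKBH6 3.81 ± 0.262 and 3.88 ± 0.214 FPKM in the GIA and DMSO libraries. Fold changes were positive for 3 and negative for 6 of these 9 genes (median -0.031).

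None of the remaining oxygenases that were tested passed either. OGFOD1, a prolyl hydroxylase of the ribosomal protein RPS23, had 14.7, 13.4 and 14.3 FPKM in GIA libraries 1 to 3, against 15.1, 14.4 and 15.0 FPKM in DMSO libraries 1 to 3, and was lowest in GIA library 2. OGFOD2 and OGFOD3 averaged 2.38 ± 0.275 and 2.85 ± 0.198 FPKM in the GIA libraries and 2.23 ± 0.288 and 3.01 ± 0.0774 FPKM in the DMSO libraries. The OGFOD2 model shares 4724 bases on the same strand with another model at 2.70 FPKM, so the share of reads given to it is uncertain. ASPHD1, which resembles ASPH, averaged 10.3 ± 0.304 FPKM in the GIA libraries and 10.4 ± 0.363 FPKM in the DMSO libraries, while ASPHD2 was too low to test, with 0.0716, 0.0965 and 0.134 FPKM in the GIA libraries, against 0.0992, 0.246 and 0.169 FPKM in the DMSO libraries. PHYH, which breaks down phytanic acid in peroxisomes, averaged 5.35 ± 0.476 FPKM in the GIA libraries and 5.18 ± 0.0920 FPKM in the DMSO libraries.

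**Figure D4:**
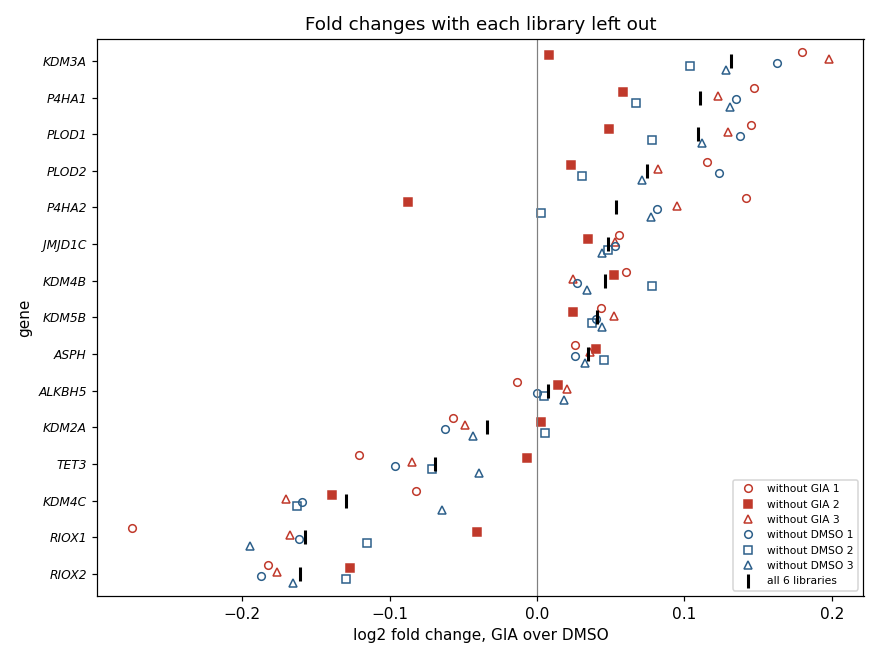
Log2 fold change of GIA over DMSO (x axis) for the 15 oxygenases whose fold changes are printed (y axis), with all 6 libraries (black bars) and with each library left out (symbols, GIA in red and DMSO in blue). Leaving out GIA library 2 (filled squares) moves KDM3A, P4HA1, PLOD1, PLOD2 and RIOX1 towards 0 and turns P4HA2 negative, while RIOX2 stays between -0.19 and -0.13.

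Partners of these enzymes were read from the same fit, and none of their lists held a gene past the threshold. Of 12 tested genes that modify collagen beside the hydroxylases, 7 had a positive and 5 a negative fold change. FKBP10, a chaperone of collagen lysyl hydroxylation, had 26.7, 30.2 and 26.6 FPKM in GIA libraries 1 to 3, against 24.7, 24.0 and 25.6 FPKM in DMSO libraries 1 to 3, a log2 fold change of 0.17 (SE 0.052, unadjusted p 0.0115 and adjusted p 0.875 by edgeR). P4HB, the beta subunit that binds P4HA1, had 130, 149 and 136 FPKM in the GIA libraries, against 134, 127 and 129 FPKM in the DMSO libraries. It too was highest in GIA library 2 and lowest in DMSO library 2, and its level was several times that of P4HA1 in every library. Among 13 tested genes of cosubstrate and ascorbate supply, IDH3A, a subunit of the mitochondrial enzyme that makes 2-oxoglutarate, had 14.3, 13.9 and 14.3 FPKM in the GIA libraries, against 15.3, 15.2 and 15.0 FPKM in the DMSO libraries. All 3 GIA values lay below all DMSO values, with a log2 fold change of -0.099 (SE 0.035, adjusted p 0.875).

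Genes that write, read or oppose the marks that these oxygenases remove were also close between the groups. Of 6 tested genes of DNA methylation, 1 had a positive and 5 a negative fold change. TDG, which excises the oxidised bases that TET enzymes make, had 11.1, 11.1 and 10.8 FPKM in GIA libraries 1 to 3, against 11.2, 12.3 and 12.4 FPKM in DMSO libraries 1 to 3, and -0.13 (SE 0.048, adjusted p 0.875) on the log2 scale, with the groups not overlapping. Of 13 genes of m6A writing and reading, 5 had a positive and 8 a negative fold change. The readers YTHDF1 and YTHDF3 had -0.11 (SE 0.045, adjusted p 0.875) and -0.12 (SE 0.042, adjusted p 0.875). In these readers and in ZC3H13, a subunit of the m6A writer complex, all GIA values lay below all DMSO values, 3 of the 13 (23.1%), against 5.60% of all genes tested. Among 17 histone methyltransferases, 7 had a positive and 10 a negative fold change, and SUV39H2, which trimethylates lysine 9 of histone H3, had -0.20 (SE 0.081, adjusted p 0.875) and did not overlap between the groups either. The 4 hydroxylases of hypoxia-inducible factor had 2 positive and 2 negative fold changes. The 6 partner genes named with a fold change in these 2 paragraphs are those with an unadjusted p under 0.05 among 65 tested, or 9.23%, against 4.59% of all genes tested. The groups did not overlap for 3 of the 65 with GIA above (4.62%, against 5.63% of all genes tested) and for 6 with GIA below (9.23%, against 5.60%).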

How the data were processed

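RNA from 6 samples labelled HCT116, 3 given GIA and 3 given DMSO, was sequenced as strand-specific libraries, per the labels' protocols. Per the submitters' processing notes, HISAT2 2.2.1 and StringTie 2.1.6 are named beside DESeq2 1.22.2, cutadapt and FastQC 0.10.1, with GRCh38 (hg38) as the build; no source used here names the annotation release. For each gene and library the authors deposited an estimated count and an FPKM value in 1 table, per the file headers. Among low counts, 4 and 8 were more frequent than their neighbours, as for counts made from coverage, so a count is not exactly a number of reads. Totals were 55725249 to 67835059 per library.

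From the deposited values, genes with a mean of at least 0.5 FPKM were tested with edgeR 4.0.16 (quasi-likelihood, TMM scaling, R 4.3.3) on the rounded estimated counts, with Benjamini-Hochberg adjustment over all 13721 genes and a threshold of 0.05. The procedure was tested on simulated data with planted changes of 1.5-fold or more. These are larger than the fold change of any tested oxygenase, so this test does not bear on differences of that size. Alternatives were median-of-ratios or no scaling, DESeq2 1.42.0, limma 3.58.1 on log2(FPKM + 0.5), no filter, a mean of at least 5 FPKM, a replicate block and leaving out each library. Intervals cover 95%. All oxygenases are named; fold changes are printed for the 7 known as hypoxia-induced, the highest of each family, and those with an unadjusted p under 0.05 or groups that do not overlap. In the partner lists, genes with an unadjusted p under 0.05 are named, with P4HB chosen after its values were seen, as were ZC3H13, CA9, BNIP3, HIF1A and the 2 genes of the interval example. The genes and lists were chosen with earlier results of these data known.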

Additional observations from a re-analysis of the deposited data

How the results depend on the processing

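No oxygenase was called under any of the 13 alternatives. Over all genes tested, 0 calls became 3 with the replicate block and 0 to 5 when 1 library was left out (5 without GIA library 3, 2 without DMSO library 2 or 3, 1 without GIA library 1). Deviations of same-numbered libraries from their group means had correlations of 0.052, 0.033 and 0.097, against -0.086 to 0.035 for libraries of different numbers. All of these are small, and whether the numbers mark pairs cannot be told from them. With the replicate block the median over the 47 oxygenases was 0.0021. The oxygenases with an unadjusted p under 0.05 numbered 2 with DESeq2 (RIOX2 and PLOD1) and 1 to 6 with 1 library left out; the 6, without GIA library 1 (12.8%, against 10.3% of all genes tested), were KDM4A, PLOD1, P4HA1, RIOX1, RIOX2 and P4HTM. Separated groups numbered 4 to 11 (8.51% to 23.4%) with 1 library left out, against 19.2% to 27.1% of all genes tested, and this count was not run for DESeq2, limma or the replicate block, which do not change the FPKM values. The median log2 fold change was 0.0022 to 0.0152 with 1 library left out, the highest without GIA library 1. With 1 library left out, 4 to 8 of the 47 oxygenases changed sign (8.51% to 17.0%), against 10.9% to 20.3% of all genes tested. Among the 15 printed fold changes, the sign then turned for ALKBH5 (-0.0136 to 0.0203), KDM2A (-0.0621 to 0.0052) and P4HA2 (-0.0877 to 0.1415). The cause was not tested. The other 12 printed fold changes kept their sign in all alternatives that gave a value. There were 3 libraries per group, with a spread of 11.0% between libraries (edgeR's biological coefficient of variation). Small differences may thus have been missed in abundant genes as well as in low ones. The intervals were widest for the low genes P4HA3, P3H3 and KDM8. The smallest difference that could be detected was not measured.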
